A study of Rattus norvegicus with 3 samples.

Results

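The genes described here are 9 genes of hypoxia sensing and its response, measured in renal proximal tubules of the rat. They were chosen by symbol: every probe set annotated to exactly 1 gene, that gene being Hif1a, Epas1, Vhl, Egln1, Egln3, Vegfa, Epo, Adm or Bnip3, was taken on all arrays. All 9 genes were present, with 12 probe sets of the 20826 that name 1 gene, and they are 9 of 14217 named genes in all. Epas1, Egln1 and Vegfa had 2 probe sets each and the other 6 genes had 1.

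The tubules came from male Sprague-Dawley rats aged 7 to 8 weeks and formed 1 group of 3 preparations, each hybridised to 1 Affymetrix array, with no control group. Every animal had been given 250 units of heparin into the abdomen 30 min before death, and the kidney was perfused with 10 ml of cold buffered saline and 10 ml of collagenase (2 mg/ml). The cortex was digested for 20 min and the tubules were separated on 42.5% Percoll. The labels do not say whether the preparations came from different animals, so the spread between arrays may be technical, and they record no oxygen level.

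Cells sense oxygen through hypoxia-inducible factor (HIF), a dimer of an oxygen-regulated alpha subunit and the constant beta subunit Arnt. When oxygen is present, prolyl hydroxylases of the Egln family modify the alpha subunit, the von Hippel-Lindau protein binds it and the proteasome destroys it. When oxygen is short, the alpha subunit survives and HIF switches on genes of red cell formation, vessel growth, glycolysis and mitochondrial turnover. Control of the alpha subunit is thus largely at the protein, which an mRNA array does not measure. In hypoxic rat kidney the HIF-1 alpha protein is known mainly from tubule epithelium, and HIF-2 alpha from endothelial, interstitial and glomerular cells.

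HIF binds a short core motif, ACGTG or GCGTG, on either strand. The start regions of 4 members are shown because they set the paired alpha subunits beside the members with more than 1 match. Each line gives the 250 bases before the annotated start, 5′ to 3′ on the gene's strand, from RefSeq on the GRCr8 build, with motif matches in capitals. Hif1a lies at chr6:98359648-98359897 on the plus strand, Epas1 at chr6:13624730-13624979 on the minus strand, Egln1 at chr19:69804682-69804931 on the minus strand and Bnip3 at chr1:203154963-203155212 on the minus strand.
Hif1a: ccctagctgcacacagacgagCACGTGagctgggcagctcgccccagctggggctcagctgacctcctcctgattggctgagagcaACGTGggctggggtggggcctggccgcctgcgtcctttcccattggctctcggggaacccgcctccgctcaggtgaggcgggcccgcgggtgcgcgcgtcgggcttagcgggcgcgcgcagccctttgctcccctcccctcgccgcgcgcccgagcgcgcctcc
Epas1: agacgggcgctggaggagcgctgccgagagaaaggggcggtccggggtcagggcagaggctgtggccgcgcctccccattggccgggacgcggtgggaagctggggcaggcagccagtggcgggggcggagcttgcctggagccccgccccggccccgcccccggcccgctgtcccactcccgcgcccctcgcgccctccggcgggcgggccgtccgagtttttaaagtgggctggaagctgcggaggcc
Egln1: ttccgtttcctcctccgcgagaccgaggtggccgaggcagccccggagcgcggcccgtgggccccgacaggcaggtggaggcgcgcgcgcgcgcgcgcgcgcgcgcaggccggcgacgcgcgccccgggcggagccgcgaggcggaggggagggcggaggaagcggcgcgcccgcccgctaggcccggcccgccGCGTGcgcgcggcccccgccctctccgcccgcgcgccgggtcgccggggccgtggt
Bnip3: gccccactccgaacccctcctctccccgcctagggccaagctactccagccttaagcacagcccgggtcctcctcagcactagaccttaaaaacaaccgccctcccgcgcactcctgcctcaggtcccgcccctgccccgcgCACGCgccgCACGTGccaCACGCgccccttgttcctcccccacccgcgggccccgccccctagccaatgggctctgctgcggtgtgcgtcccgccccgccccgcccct

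The search covered 300 bases around each start, 250 before and 50 after, and Vegfa has 2 annotated starts, so the members had 10 windows. At least 1 match lay in 4 of the 10 member windows, against 41.6% of all 33469 windows in the table. Bnip3 held 4 matches, which cover 16 bases between positions -108 and -86. Hif1a held 3, Egln1 held 2, of which 1 lies just after the start at position 3, and Epo held 1. The motif overlaps the E-box CACGTG, which reads as a match on both strands and stood in the Hif1a and Bnip3 windows, against 6.42% of all windows. The windows of Epas1, Vhl, Egln3, Vegfa and Adm held none of these letters. Windows with a G+C content of at least 60% held a match in 68.3% of cases, and 6 of the 10 member windows were that rich, 4 of them with a match. These matches describe sequence and do not show binding. Sequence outside the windows was not searched, so a window without a match does not show that a gene lacks a site.

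**Figure D1:**
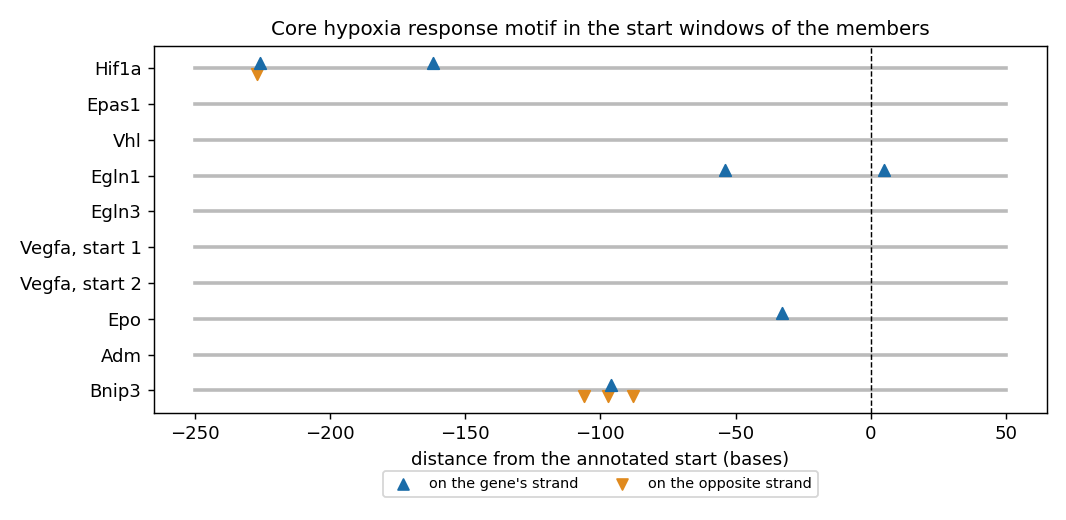
Positions of the motif ACGTG or GCGTG in the start windows of the members, in bases from the annotated start (dashed line). Triangles pointing up are on the gene's strand and those pointing down on the opposite strand. Bnip3 holds 4 matches close together and 6 of the 10 windows hold none.

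Values were signal intensities on a linear scale as deposited. The array medians were 37.1, 37.4 and 34.9 on arrays 1, 2 and 3, and the 75th percentiles were 181, 167 and 167. The 3′ to 5′ ratio of the beta-actin control was 3.85, 3.28 and 3.66, and that of GAPDH was 1.52, 1.52 and 1.40. All 12 proximal tubule markers lay above the median on all 3 arrays, with summed signals of 85102, 76919 and 81233. Markers of other nephron segments and of vessels also gave signal, as set out below. Since affinity varies between probe sets, the levels of named genes are not ranked against each other, and each signal is set only against its own array. Percentiles place a signal among all probe sets of its array, so they too carry differences in affinity. List members are named by a rule that uses mean signal to choose names only. In whole preparations, fewer cells of a type and less RNA per cell cannot be told apart.

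On all 3 arrays, 6 of the 9 members exceeded the array median, as did 61.0% of the named genes. These 6 were Hif1a, Epas1, Vhl, Egln1, Vegfa and Bnip3. All 6 also lay above the 75th percentile on every array, a line for which no share of all named genes was taken. Egln3 and Adm lay close to the median, and Epo lay far below it. Counted by probe set, 8 of 12 exceeded the median on all 3 arrays, against 54.5% of the probe sets with 1 gene. The share of the 9 genes above the median was thus near the background at that line. By leading probe set, the median percentile was 90.8 for the members and 65.9 for all named genes.

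**Figure D2:**
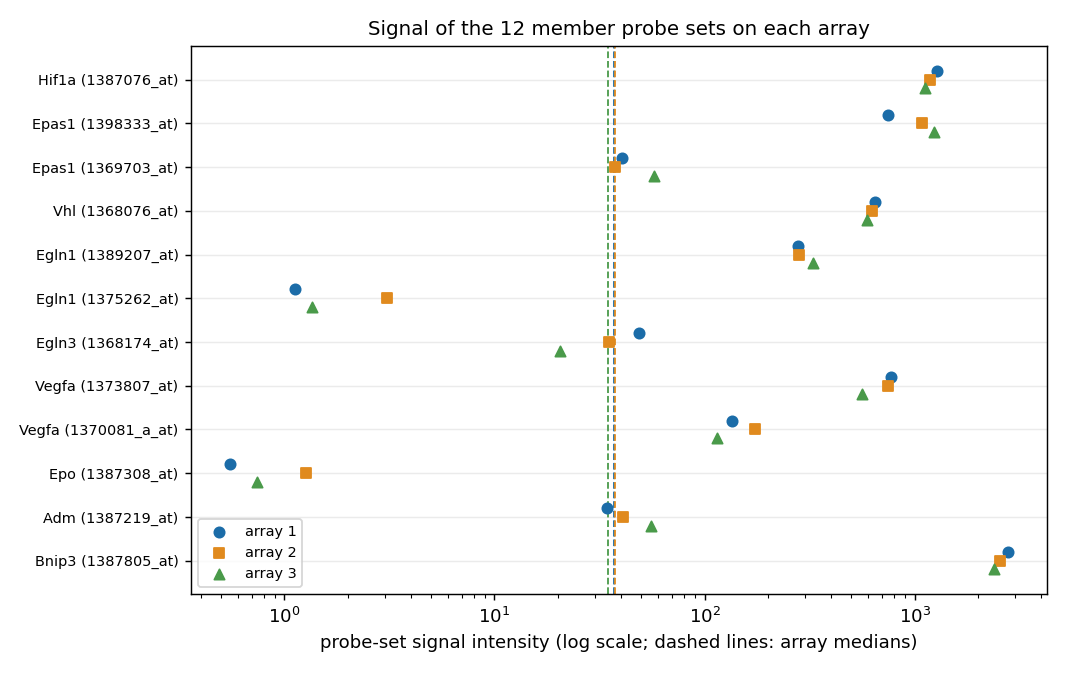
Signal intensity of the 12 member probe sets on arrays 1 to 3 (circle, square and triangle; log axis), with the array medians as dashed lines. Hif1a, Vhl and Bnip3 give nearly the same signal on every array, Egln3 and Adm straddle the medians, and Epo and the second Egln1 probe set lie far to the left.

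The alpha subunits came first. Hif1a, which encodes HIF-1 alpha, gave 1277, 1178 and 1123 on arrays 1, 2 and 3, a mean of 1192.5 ± 77.8 (SD, n = 3, as for all means below). Its 3 values lay close together, at a mean percentile of 95.4 among the 31042 probe sets that are not controls. On the scale of log2(signal + 16), centred on each array's median, the gap between its highest and lowest array was 0.12. All probe sets were cut into 10 classes by mean level, and among the 3105 in the class of Hif1a, 89.6% ranged at least as far.

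Epas1, which encodes HIF-2 alpha, gave 745, 1079 and 1241 with its probe set of higher signal (1398333_at), a mean of 1022 ± 253. Array 1 was the low one, and arrays 2 and 3 lay nearer each other. Its range was 0.79 log2 units, and 2.42% of the probe sets in its class ranged as far. Without array 1 the range was 0.27, so this gap rested mainly on that preparation. The second probe set (1369703_at) gave 40.5, 37.5 and 57.5, also highest on array 3 but with array 2 the lowest. That probe set lay barely above the array medians, at a mean percentile of 53.3, whereas the first lay at 94.1. Which part of the transcript each probe set reads was not examined here.

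Epas1 is also expressed by endothelium, so vessel markers were set beside it. Of 11 endothelial markers, 10 were measured and 9 lay above the median on all 3 arrays, and none was listed at 0. Their signals summed to 1248, 1529 and 1680.2 on the 3 arrays, the same order as the leading Epas1 probe set. Plvap, of the fenestrated capillary wall, gave 185, 286 and 396, while Kdr, a receptor of VEGF-A, gave 232, 234 and 341 (Kdr and Flt1 stand in the receptor list below as well). The lowest array was array 1 for 6 of the 10 markers, and 4 of 10 were lowest on array 1 and highest on array 3. Over all probe sets with 1 gene, 12.5% had that order. The part of endothelial RNA in the Epas1 signal was not tested.

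**Figure D3:**
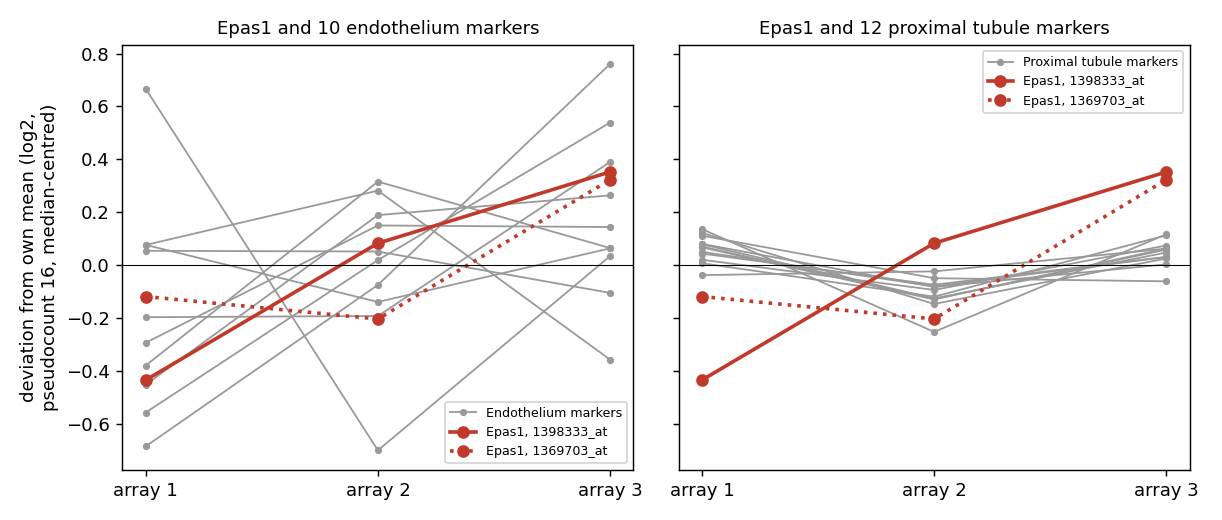
Deviation of each probe set from its own mean over the 3 arrays (log2 of signal plus a pseudocount of 16, centred on array medians), for Epas1 (red) beside 10 endothelial markers (left, grey) and 12 proximal tubule markers (right, grey). Lines only link the values of 1 probe set. On array 3 both Epas1 probe sets lie within the spread of the endothelial markers and above every proximal tubule marker. Each proximal tubule marker ranged less than either Epas1 probe set. Lists not drawn also held the order of the leading Epas1 probe set, in 4 of 6 collecting duct markers and 7 of 11 genes induced by handling.

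Other compartments did not share that order in their sums, which rest mainly on the genes of highest signal. Proximal tubule markers and thick ascending limb and distal markers were lowest on array 2, with limb and distal sums of 13264, 11095 and 12080 over 6 of 7 markers measured, all 6 above the median. The interstitial fibroblast and pericyte list, with 10 of 10 measured and 3 above the median, summed to 1603, 1369.5 and 1565, most of it Nt5e. The 3 above the median were Nt5e (997 ± 112), which rat proximal tubule also carries, Pdgfra (302 ± 26.4) and the collagen gene Col3a1, named after its value was seen. Col3a1 gave 43.2, 68.6 and 102.4, the array order of the leading Epas1 probe set. That order held for 2 of these 10 markers, against 12.5% of all probe sets with 1 gene. Lum of fibroblasts gave 1.23 ± 0.735. Podocyte markers, of which 5 of 6 were measured and 1 lay above the median, summed to 156, 206 and 175, with Nphs1 of the filtration slit at 9.27 ± 4.14. Macrophage and dendritic markers (6 of 6 measured, 2 above) summed to 5083, 3115 and 4973, nearly all of it Cd74, and red cell markers (4 of 5 measured, 1 above) to 211, 124 and 139. Collecting duct markers (6 of 6 measured, 2 above) summed to 1076, 959.8 and 1089, most of it Aqp3. Of these 6, 4 were lowest on array 1 and highest on array 3. By median centred deviation the collecting duct list followed the Epas1 order (-0.23, -0.12 and 0.22 log2 units), as endothelium did (-0.25, 0.035 and 0.10). The proximal tubule, limb and distal, interstitial, podocyte, macrophage and red cell lists did not. No marker in these lists was at 0. Genes induced by tissue handling, 11 of 13 measured and 8 above the median, summed to 2212, 2482.5 and 2364. Of these 11, 7 were lowest on array 1 and highest on array 3, as the leading Epas1 probe set was. By median centred deviation the handling list also followed the Epas1 order (-0.20, -0.02 and 0.15 log2 units). The part of handling in the Epas1 order was not tested.

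By the rule fixed for likeness, Epas1 was the member of widest range above the median. The 3 genes nearest to it among 8673 genes above the median, by Euclidean distance of centred log2 deviations over the 3 arrays, were Gltp (distance 0.048), Ier5 (0.050) and Wsb1 (0.055). Gltp gave 65.1, 97.2 and 120.2, Ier5 gave 76.0, 111 and 129.7, and Wsb1 gave 462, 641 and 737. With 3 arrays such likeness is a description of these preparations only.

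Vhl encodes the substrate receptor of the ubiquitin ligase that removes hydroxylated HIF-alpha. It gave 644, 623 and 592, a mean of 619.9 ± 26.3. Its 3 values lay close together, with a range of 0.056 log2 units, and 98.4% of the probe sets in its class ranged at least as far. The range was 0.13 with quantile normalization and 0.12 without centring.

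Egln1, the prolyl hydroxylase PHD2 and the main oxygen sensor of the family, gave 277, 282 and 326 with its leading probe set (1389207_at), a mean of 295 ± 27.05. Array 3 was slightly higher than the other two arrays, by a range of 0.29 log2 units, and 47.2% of its level class ranged as far. Without array 3 the range was 0.018. The other Egln1 probe set (1375262_at) gave 1.12, 3.10 and 1.35 and lay below the median on every array, so the gene's call depends on which probe set is read.

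Egln3, the hydroxylase PHD3 and itself a HIF target, gave 48.8, 35.1 and 20.5, a mean of 34.8 ± 14.1. Only array 1 exceeded its array median. The highest signal was 2.38 times the lowest as deposited, and 1.70 times on the scale with a pseudocount of 16, a range of 0.76 log2 units. Of its level class, 20.5% ranged as far. Without array 3 the range was 0.35, and with a pseudocount of 1 it was 1.12, the only member probe set past 2-fold in that setting. At this low signal the size of the gap therefore depends on the pseudocount.

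Of the targets, Bnip3, a mitochondrial outer membrane protein that calls in the autophagy machinery, gave 2769.6, 2536 and 2386, a mean of 2564 ± 193. The 3 arrays lay within 0.15 log2 units, at a mean percentile of 98.0.

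Vegfa, the vascular growth factor that tubule cells and podocytes send to nearby capillaries, gave 771, 744 and 559.5 with its leading probe set (1373807_at), a mean of 691.5 ± 115. Its second probe set (1370081_a_at), whose suffix marks shared transcripts, gave 135, 174 and 115. Both were lowest on array 3, with ranges of 0.39 and 0.46 log2 units. Without array 3, the range of the leading probe set was 0.058. In their level classes, 19.8% and 23.9% of probe sets ranged as far.

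Adm encodes adrenomedullin, a peptide that widens vessels and promotes sodium excretion. It gave 34.3, 40.7 and 55.4, a mean of 43.5 ± 10.8, and lay below the array median on array 1 and above it on the other two. Array 3 was the highest, with a range of 0.57 log2 units, and 27.3% of its level class ranged as far. Without array 3 the range was 0.17.

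Epo, the hormone of red cell formation that the adult kidney makes in interstitial cells, gave 0.552, 1.27 and 0.743, a mean of 0.855 ± 0.372. All 3 values lay in the lowest 5% of their arrays, at a mean percentile of 2.34. The values are intensities with no detection call, so they show only that the probe set lay at the bottom of the scale. Its range was 0.080 log2 units with the pseudocount of 16, which flattens signals this low, and 0.54 with a pseudocount of 1. The interstitial markers are given above.

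Read across the members, 0 of 12 probe sets had a 2-fold range between arrays, against 4.72% of all probe sets with 1 gene. Of the 8 above the median on every array this was also 0, against 1.41%. The median range was 0.34 log2 units for the 12, and 0.35 for all probe sets with 1 gene. As deposited, before centring, signal was highest on array 1 and lowest on array 3 for 5 of 12 (Hif1a, Vhl, Egln3 and Bnip3, and Vegfa by its leading probe set), against 23.3% of all. On the centred scale Hif1a was lowest on array 2, by a deviation of -0.041 against -0.039 on array 3. The opposite order held for 3 of 12 (Adm, and Epas1 and Egln1 by their leading probe sets), against 12.5% of all. Each array is a single preparation, so no difference between arrays was tested.

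**Figure D4:**
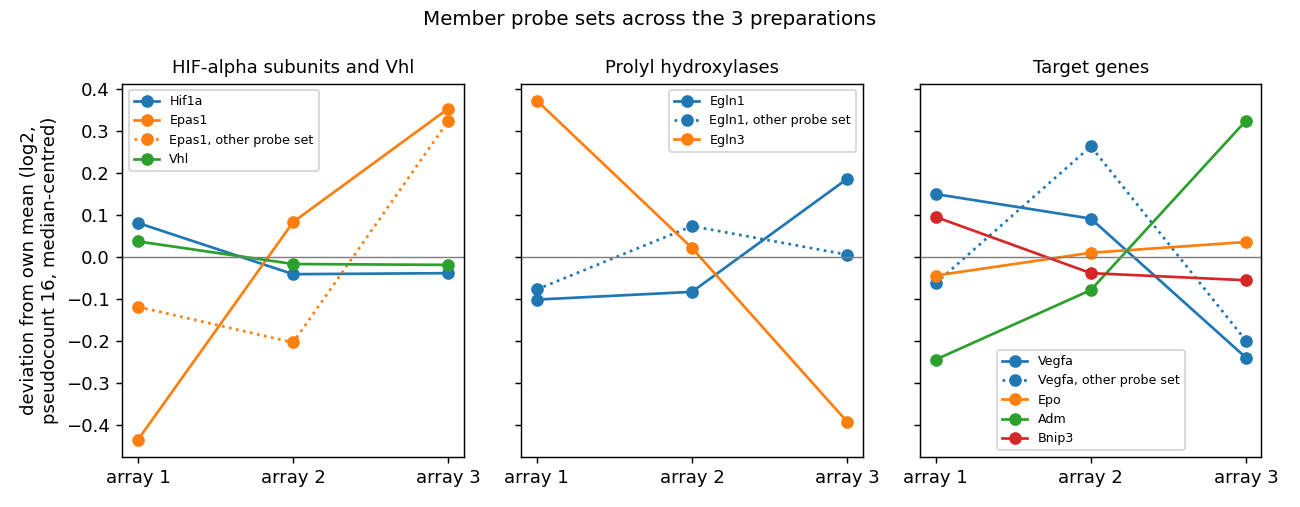
Deviation of each member probe set from its own mean over the 3 arrays (log2 of signal plus a pseudocount of 16, centred on array medians). Solid lines are leading probe sets, dotted lines the second probe set of a gene, and lines only link values of 1 probe set. Hif1a, Vhl, Bnip3 and Epo stay near 0, while Epas1 and Adm are highest and Egln3 and Vegfa lowest on array 3.

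The rest of the pathway was read from 6 lists holding 101 genes other than the members, of which 91 were measured. The median of every array was exceeded by 65 of these (71.4%), against 61.0% of all named genes. Of these 65, 1 ranged by 2-fold or more, near the 1.41% of all 1-gene probe sets above the median that did so. It was Ddit4, an inhibitor of the mTOR kinase complex, which gave 469, 118 and 243, a range of 1.86 log2 units. Array 2 was the low one for Ddit4, and no member showed a gap of that size.

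Among HIF partners and coactivators, 6 of 9 measured genes lay above the median. Cited2, a competitor of HIF for its coactivators, gave 1256 ± 151, and the acetyltransferase coactivator Ep300 gave 599 ± 15.9. The coactivators Ncoa1 and Crebbp gave 544 ± 91.3 and 266 ± 38.0. Hif3a, the third alpha subunit, gave 1.97, 1.77 and 18.99, and Cited4 gave 7.39, 34.2 and 20.8, both low and uneven. Arnt, the beta subunit, was named after its value was seen and gave 37.5 ± 3.19, close to the array medians.

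In the list of hydroxylases and degradation, 10 of 11 measured genes lay above the median. The elongins Elob (2622 ± 148) and Eloc (1776 ± 193) and the ring protein Rbx1 (1497 ± 117) form the ligase with Vhl and Cul2. Rack1, an oxygen-independent route to HIF-1 alpha loss, gave 3548 ± 272. Siah2, a ligase that acts on prolyl hydroxylases, gave 55.5 ± 9.81. P4htm, a membrane-bound prolyl hydroxylase, gave 35.4 ± 2.06 and was the 1 gene of this list not above the median on every array. Egln2, the hydroxylase PHD1 and named after its value was seen, gave 367, 425 and 451, a mean of 414.5 ± 43.1. All 3 hydroxylases of the Egln family were thus measured, with Egln1 and Egln2 above the median on every array and Egln3 on 1.

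Glucose use targets had 12 of 17 measured genes above the median. The glycolytic enzymes Eno1, Aldoa, Pgk1 and Pgam1 gave 8087 ± 741, 6946 ± 415, 6669 ± 358 and 5591 ± 424. Aldoc, the brain form of aldolase, gave 4.16, 30.3 and 5.32, and the glucose carrier Slc2a3 gave 16.2, 5.25 and 2.11, all below their array medians. Genes of this list that are strongly HIF-dependent in many cells were named after their values were seen. Among these, the carrier Slc2a1 gave 99.9 ± 5.29, the lactate dehydrogenase gene Ldha gave 1071 ± 88.6 and the kinase Pdk1, which slows pyruvate entry to the TCA cycle, gave 67.5 ± 9.26. Hk2 gave 16.4 ± 0.733, below the median on every array.

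Among 32 other measured targets, 22 lay above the median. Ndrg1, a stress-linked cytoplasmic protein, gave 8402 ± 597, the mitochondrial adenylate kinase gene Ak4 3533 ± 621, the mitophagy receptor Bnip3l 1559 ± 114 and the mitochondrial protein gene Higd1a 1264 ± 115. Igfbp3, which binds insulin-like growth factors, gave 24.8, 69.8 and 40.9. Fam162a at 12.2 ± 7.86 and Stc2, a stanniocalcin, at 8.31 ± 8.65 lay below the median on every array. Car9, a carbonic anhydrase used as a hypoxia marker in tumours and named after its value was seen, gave 18.3 ± 7.20, below the median on every array. Targets therefore lay on both sides of the median, as the members did.

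For the secreted members, receptors and relatives lay above the median in 6 of 12 measured genes. Nrp1, a co-receptor of VEGF-A, gave 567 ± 94.1, the relatives Vegfb and Vegfc gave 540.4 ± 79.6 and 151 ± 5.65, and Kdr gave 269 ± 62.3. Calcrl, the receptor of adrenomedullin, gave 10.9, 17.4 and 2.77, and the placental relative Pgf gave 8.00 ± 2.51. Epor, the receptor of erythropoietin and named after its value was seen, gave 24.8 ± 3.70, below the median on every array.

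Mitophagy partners of Bnip3 lay above the median in 10 of 11 measured genes. Gabarap, a protein of the autophagosome membrane, gave 4789 ± 156, the adaptor Sqstm1 2610 ± 201, the GTPase Rheb 1902 ± 109 and Bnip3l is given above. Fundc1, another mitophagy receptor, gave 179 ± 44.2. The survival factor Bcl2 gave 9.36 ± 4.70 and was the 1 measured gene of this list not above the median on every array.

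**Figure D5:**
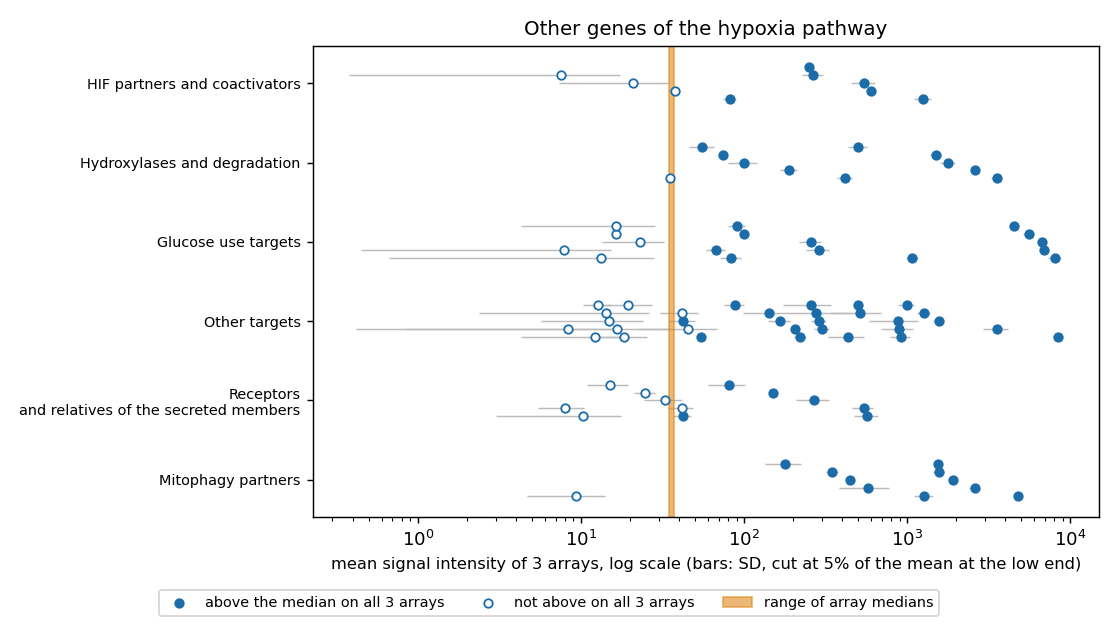
Mean signal of the other pathway genes by list (log axis, bars are SD over 3 arrays). Filled points exceed the median of each array and open points do not, and the band is the range of the array medians. Every list holds open points, with 10 of 11 filled for hydroxylases and degradation and for mitophagy partners, and 6 of 12 for receptors and relatives.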

How the data were processed

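Each deposited value is a linear signal intensity of 1 probe set, from biotin-labelled cRNA on Affymetrix arrays, per the labels' protocols. The summarisation software and scaling are not given in the sources used here, and no detection calls were used. Array annotation named 1 gene for 20826 of 31099 probe sets, several for 436 and none for 9780, and 57 were controls. All 9 member identifiers matched RefSeq, with 0 symbols changed. A gene's leading probe set was that of highest mean signal. Ranges used log2(signal + 16) centred on array medians, and 2-fold was the line. With 1 group, no test between conditions exists, and the number of arrays limits precision. Python 3.11.15, numpy 2.4.6 and pandas 2.3.3 were used. The range rule was also run on simulated data, with shifts larger than 2-fold planted only in probe sets well above the median. That run does not show how the rule treats smaller shifts or low signals.

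The members and lists were chosen with earlier results of these data known. Named genes were all members, the 4 highest and 2 lowest of each pathway list with any widely ranging gene above the median, and the 2 highest and the lowest of each cell list, which chooses names and ranks no gene. Protein sequences were not used here. Alternatives were other probe-set rules, lines, pseudocounts and scalings, and leaving out each array.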

Additional observations from a re-analysis of the deposited data

How the results depend on the processing

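The count of members above the line was 6 of 9 with a gene's probe sets averaged, with shared-transcript probe sets left out and with the line at the 75th percentile, 8 at the 25th percentile, and 6 to 7 without 1 array. The share of all named genes was taken at the median line only. No member probe set ranged by 2-fold or more with a pseudocount of 64, quantile normalization or no centring, and 1 did (Egln3) with a pseudocount of 1. None did with 1 array left out either. Leaving out an array cannot widen a range, so that outcome was fixed in advance. The receptor list had 10 genes above the 25th percentile and 3 above the 75th, and the hydroxylase and degradation list had 6 above the 75th, by construction of the line. Of 62 recomputed counts, 58 stayed within 1.5 times, among them counts that could not change. Of 108 recomputed means and ranges of single members, 16 moved by more than 1 SD. A mean of 3 arrays cannot move that far when 1 is left out, and averaging changes nothing for a gene with 1 probe set. The share that stayed is therefore no measure of stability. Without array 1 the range of Hif1a was 0.0024 and that of Bnip3 0.017. Averaging both probe sets of a gene gave mean signals of 533 for Epas1, 149 for Egln1 and 416 for Vegfa. No paired analysis was possible because all arrays belong to 1 group. Signals near or below the array median have no detection call, so their ratios between arrays carry little weight.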

Other observations

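Below a 2-fold range, the 4 listed pathway genes above the median on all arrays with the widest ranges were Igfbp1, Becn1, Mxi1 and P4ha1, chosen after their values were seen. Igfbp1, a binding protein of insulin-like growth factors, gave 161, 287 and 320 (0.98 log2 units). Becn1 of autophagy gave 760.2, 599 and 370 (0.95). Mxi1, a repressor of Myc targets, gave 1209, 654 and 764 (0.88), and P4ha1, a collagen prolyl hydroxylase, gave 712, 445 and 389 (0.79). Array 1 was the highest for Becn1, Mxi1 and P4ha1 and the lowest for Igfbp1.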
